A study of Mus musculus with 95 samples.

Results

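Hematopoietic stem cells (HSC) were compared with HPC-1, a restricted progenitor population of the same bone marrow compartment, in mice that had received a transplant 6 to 16 weeks earlier. The members were chosen from the library titles: 15 HSC and 15 HPC-1 libraries, 3 of each population at 6, 8, 10, 13 and 16 weeks, together 30 of the 95 libraries of the series. For these libraries the donor cells were 8000 LSK cells (lineage-negative, Sca-1+, c-Kit+ marrow cells), given to recipients that had been lethally irradiated with 900 cGy. The strain label of every library is B6.SJL and the age label is 8 to 12 weeks, and the labels do not say whether that age is the age at transplant or at sampling. Each population also has 9 libraries from weeks 3, 4 and 5 after transplant and 8 libraries from untreated mice at steady state, which were used only where the late weeks were set against those phases.

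Bones were crushed, the marrow was enriched for c-Kit and the cells were sorted by flow cytometry, after which cDNA was made with SMART-Seq v4 and libraries with Nextera XT. The sort text is the same for all populations, CD48- CD150+ cells within LSK, so the gate that separated HPC-1 from HSC is not given in the labels. It is also not stated whether the 3 libraries of a week came from separate animals, so p-values measure the spread between these libraries. Values are counts scaled to the library total (CPM), and where 3 values are listed they are the lowest, the median and the highest of the 15 libraries of a population. Fold changes are log2 of HSC over HPC-1 with their standard error (SE), from edgeR's quasi-likelihood test with week as a block, and p-values are adjusted by Benjamini-Hochberg over all genes tested. A gene is called where the adjusted p is under 0.05. These are bulk samples, in which fewer cells with a transcript and less of it per cell cannot be told apart.

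HSC sit at the top of blood formation. They renew themselves for life, divide rarely, and depend on transcription factors such as Meis1 and Mecom. In the mouse they also carry transcripts of the megakaryocyte lineage, the source of platelets, and this platelet signature is known to be stronger in part of the HSC pool and in old age. HPC-1 is the CD48+ CD150- fraction of LSK cells, in the usual SLAM scheme, and contains multipotent progenitors that carry Flt3 and early lymphoid and myeloid transcripts and that give only short-lived grafts.

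The start regions of 4 genes on which the comparison turns are shown first. Cavin2 and Pf4 stand for the platelet-type transcripts that were higher in HSC, Dntt for the lymphoid transcripts that were nearly absent from HSC, and Plac8 for the gene whose difference between the populations was smaller after transplant than at steady state. Each sequence holds the bases just upstream of the annotated gene start, from RefSeq on GRCm38.p6, and is written 5′ to 3′ on the strand of the gene. Capitals mark a match to a GATA word, an ETS word or an E-box, on either strand. The GATA words were AGATAA together with TGATAA and, ending in another letter, AGATAG together with TGATAG. The ETS words searched were CGGAAG as well as AGGAAG, and the E-box was CAGNTG.
Cavin2, chr1:51288876-51289125, plus strand: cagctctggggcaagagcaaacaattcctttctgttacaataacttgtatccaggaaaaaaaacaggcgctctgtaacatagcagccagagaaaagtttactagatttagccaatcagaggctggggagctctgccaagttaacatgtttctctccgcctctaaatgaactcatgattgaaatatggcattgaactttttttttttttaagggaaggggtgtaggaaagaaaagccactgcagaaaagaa
Pf4, chr5:90772185-90772434, plus strand: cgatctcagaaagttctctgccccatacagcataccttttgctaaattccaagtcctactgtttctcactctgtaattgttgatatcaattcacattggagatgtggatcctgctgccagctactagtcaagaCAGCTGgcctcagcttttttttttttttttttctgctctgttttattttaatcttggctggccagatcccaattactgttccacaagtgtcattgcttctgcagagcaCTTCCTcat
Dntt, chr19:41029025-41029274, plus strand: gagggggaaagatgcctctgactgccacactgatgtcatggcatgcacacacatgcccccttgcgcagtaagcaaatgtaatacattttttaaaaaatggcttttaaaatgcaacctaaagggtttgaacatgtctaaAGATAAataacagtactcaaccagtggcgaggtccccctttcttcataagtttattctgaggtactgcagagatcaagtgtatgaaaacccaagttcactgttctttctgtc
Plac8, chr5:100572246-100572455, minus strand: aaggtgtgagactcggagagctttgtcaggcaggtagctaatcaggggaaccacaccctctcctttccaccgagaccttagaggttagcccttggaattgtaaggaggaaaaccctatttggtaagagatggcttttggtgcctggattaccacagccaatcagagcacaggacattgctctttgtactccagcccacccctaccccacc

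The Pf4 window held 1 ETS word and 1 E-box, the Dntt window held 1 GATA word, and no match was found in the 250 bases of Cavin2 or the 210 bases of Plac8. In the 250 bases upstream of 32817 annotated starts, 26.6% held a GATA word, 39.2% an ETS word and 44.8% an E-box. Of the 9323 tested genes with a window, 17.1% held a GATA word, 48.0% an ETS word and 36.4% an E-box. Of the 12 megakaryocyte-listed genes called higher in HSC, 8 had a window, and 2 of these held a GATA word, 5 an ETS word and 5 an E-box. Of the 13 multipotent progenitor genes called lower in HSC, 9 had a window, and 2 held a GATA word, 2 an ETS word and 6 an E-box. Such matches describe the letters of these windows and nothing about binding.

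Libraries held 4635131 to 7221593 gene counts in HSC and 3551908 to 7162046 in HPC-1, and 6628 to 14406 genes with at least 1 count in HSC and 10485 to 15671 in HPC-1. The share of counts from the mitochondrial genome averaged 1.96% in HSC and 1.44% in HPC-1. Under 10000 genes were detected in HSC 13 weeks replicate 2 and HSC 16 weeks replicate 3. HPC-1 8 weeks replicate 3 and HPC-1 10 weeks replicate 3 had nearly the same counts (chi-square per degree of freedom 2.244), as had HPC-1 13 weeks replicate 2 and an HPC-2 library from steady state (2.105), whereas the closest pair of libraries outside 6 such pairs stood at 16.35. Across all genes, HSC 6 weeks replicate 3, HSC 10 weeks replicate 1, HSC 13 weeks replicate 1 and HPC-1 6 weeks replicate 1 were nearer to the mean of another population than to that of their own label. Counts that moved without one of these sets of libraries are given beside the main ones.

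The genes of the sort gate separated the populations. Slamf1, which encodes CD150, had 0, 84.7 and 268 CPM in HSC, against 0, 0 and 25.2 CPM in HPC-1, a log2 change of 7.56 (SE 1.31, adjusted p = 0.000348). Cd48, the ligand of CD244 and the marker that HSC lack, had 0, 11.5 and 118 CPM in HSC, against 387, 998 and 1380 CPM in HPC-1, a log2 change of -5.43 (SE 0.83, adjusted p = 7.05e-05). All 15 HSC libraries lay below all 15 HPC-1 libraries for Cd48, and 13 of 15 lay above all of them for Slamf1. The shared gate genes differed less: Ly6a, the Sca-1 gene, had 172, 474 and 705 CPM in HSC, against 138, 235 and 453 CPM in HPC-1, a log2 change of 0.88 (SE 0.20, adjusted p = 0.00595). Kit, the stem cell factor receptor, had 43.8, 163 and 266 CPM in HSC, against 44.0, 132 and 175 CPM in HPC-1, with overlapping ranges and a log2 change of 0.42 (SE 0.23, adjusted p = 0.351). The population labels thus matched their SLAM markers at the transcript level. Slamf1 and Cd48 check the sort and are no finding, since sorting used their proteins.

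Over weeks 6 to 16 together, 732 of 12785 tested genes were called (5.73%), 399 higher in HSC (3.12%) and 333 lower in HSC (2.6%). The share of calls that were higher was 54.5% here and 41.6% with DESeq2. Of all 12785 genes, 2304 had an unadjusted p under 0.05 in edgeR's test, DESeq2 called 1444 and limma voom called 1642. List counts of these kinds below are to be read against those numbers. A mean level of 10 CPM or more was reached by 428 called genes, and 297 of these changed by at least 1 on the log2 scale. The sign was the same in all 5 weeks for 615 of the 732 genes. Complete separation was rarer: all 15 HSC libraries lay above all 15 HPC-1 libraries for 16 called genes (0.125% of those tested) and below them for 27 (0.211%). Without the libraries with near-identical counts 453 genes were called, and 959 passed without the 2 HSC libraries with few detected genes. Without the 4 libraries nearer to another population 912 were called, 621 of them shared with the 732. That set was chosen after seeing the data, by likeness in these same counts, which can by itself widen the difference. Over all tested genes the median log2 change was -0.12 with the scaling used here (TMM) and -0.24 with the RLE scaling, against which the changes below are to be read.

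**Figure D1:**
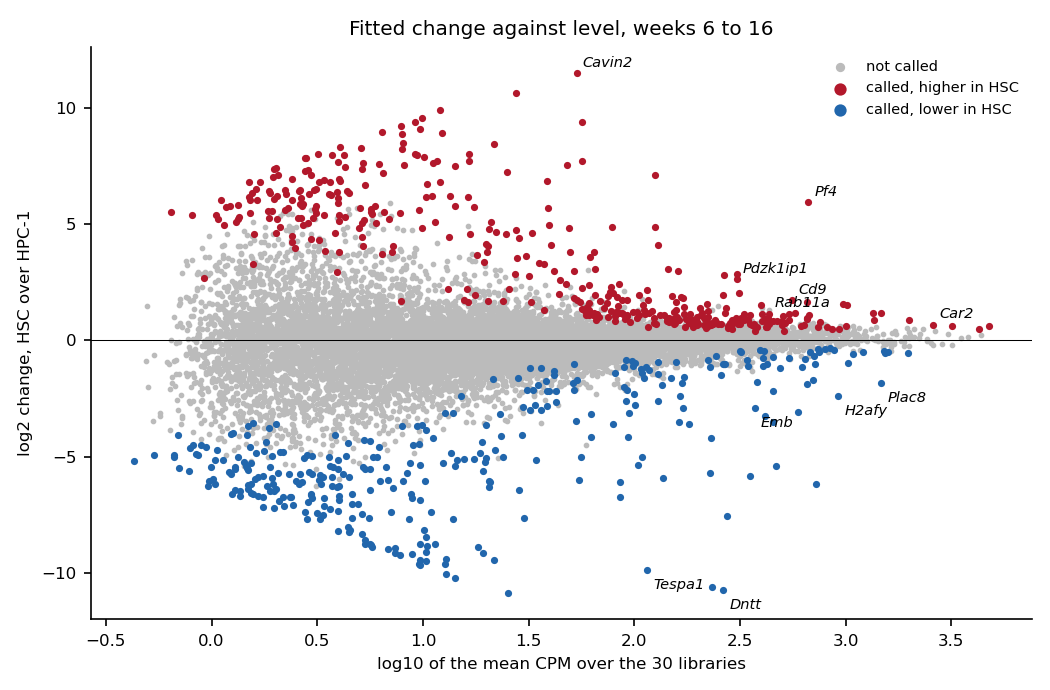
Fitted log2 change of HSC over HPC-1 (vertical axis) against log10 of the mean CPM over the 30 libraries (horizontal axis), 1 point per tested gene, with genes called higher in HSC in red, genes called lower in blue and the others in grey. The 399 higher and 333 lower genes lie over the whole range of levels, and the widest changes are those of genes with no or almost no counts in 1 population.

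Many platelet and megakaryocyte transcripts were higher in HSC. Of 21 tested members of the megakaryocyte list, 12 were called higher in HSC and none lower (57.1% called, against 5.73% of all genes), and the median log2 change was 3.06. Cavin2, a coat protein of caveolae that is abundant in platelets (ENSMUSG00000045954, chr1:51289126-51302960, plus strand, GRCm38), had 0, 99.2 and 221 CPM in HSC, against 0, 0 and 0.253 CPM in HPC-1. Only 1 read of Cavin2 was counted in all HPC-1 libraries together, so the pooled ratio was 8060 with a 95% counting interval of 1446 to 318400 (adjusted p = 3.06e-11). HSC 13 weeks replicate 2, a library with few detected genes, was the 1 HSC library with no Cavin2 read, and the other 14 lay above every HPC-1 library.

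Pf4, the CXC chemokine of platelet alpha granules (chr5:90772435-90773383, plus strand), had 356, 1027 and 3573 CPM in HSC, against 6.02, 13.2 and 59.9 CPM in HPC-1, a log2 change of 5.95 (SE 0.49, adjusted p = 8.65e-10). Its lowest HSC library stood well above its highest HPC-1 library. Gp1bb, a subunit of the platelet receptor for von Willebrand factor, had 0, 96.3 and 260 CPM in HSC, against 0, 0 and 3.06 CPM in HPC-1, a log2 change of 9.39 (SE 0.98, adjusted p = 1.19e-07). Its reads cannot be told apart from those of the overlapping gene Sept5 where the 2 share sequence. Vwf, von Willebrand factor itself, had 0, 27.4 and 118 CPM in HSC, against 0, 0 and 3.38 CPM in HPC-1, a log2 change of 8.44 (SE 1.04, adjusted p = 2.16e-06). Cd9, a tetraspanin of platelets and stem cells whose reads cannot be told apart from those of its antisense neighbour Gm28809, had 497, 843 and 1488 CPM in HSC, against 119, 272 and 353 CPM in HPC-1 (log2 change of 1.72, SE 0.16, adjusted p = 1.51e-08).

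Fli1, an ETS factor needed for megakaryocyte maturation, had 59.6, 108 and 224 CPM in HSC, against 9.98, 52.4 and 117 CPM in HPC-1 (log2 change of 1.18, SE 0.29, adjusted p = 0.0122). Treml1, Rab27b, Gp9, Ppbp and Gp5, all genes of platelet receptors or granules, were called higher as well, but the call was lost in 23 of 40 alternatives for Gp5 and in 15 of 41 for Ppbp. Not every lineage gene was called: Itga2b, the platelet integrin alpha chain, had 0.177, 23.2 and 77.1 CPM in HSC, against 0, 7.19 and 18.9 CPM in HPC-1 (adjusted p = 0.0631). Gata1, the GATA factor of the erythroid and megakaryocyte lineages, had medians of 47.7 CPM in HSC, against 8.10 CPM in HPC-1 with overlapping ranges (adjusted p = 0.481), and Selp, platelet P-selectin, had medians of 36.4 CPM in HSC, against 34.1 CPM in HPC-1 (adjusted p = 0.997), with a sign that changed between alternatives.

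The mean of log2(CPM + 1) over the megakaryocyte list was 2.31, 5.31 and 5.88 in HSC and 2.07, 2.76 and 3.11 in HPC-1. HSC 13 weeks replicate 2 held the lowest HSC value and fell within the range of HPC-1, while the next lowest HSC library stood at 4.08. The number of called members was 9 without the libraries with near-identical counts, 10 without the libraries nearer to another population and 14 without those with few detected genes.

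**Figure D2:**
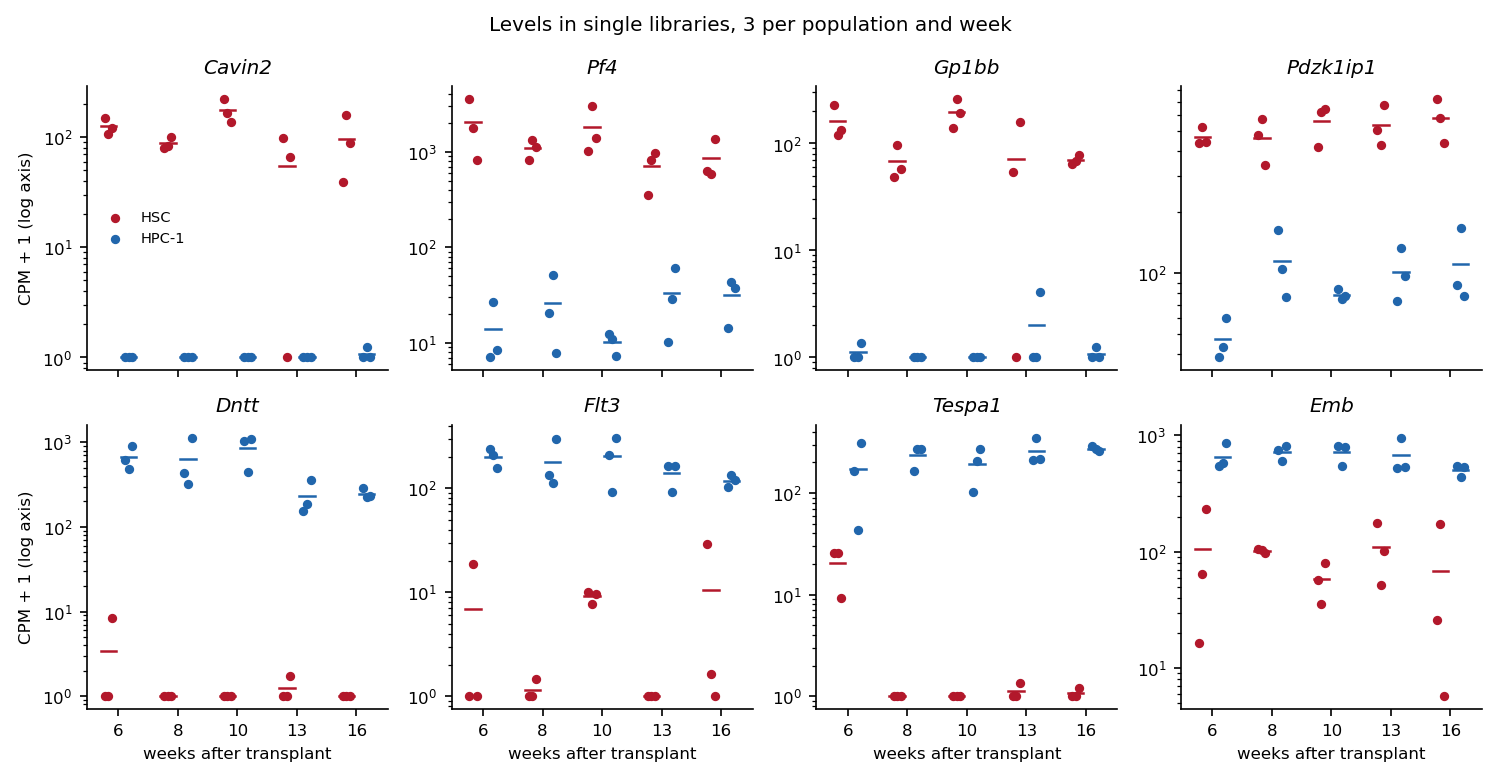
CPM + 1 on a log axis against weeks after transplant for 4 genes higher in HSC (Cavin2, Pf4, Gp1bb, Pdzk1ip1) and 4 lower in HSC (Dntt, Flt3, Tespa1, Emb), 1 point per library with HSC in red left of HPC-1 in blue, and a line at the mean of each 3 libraries. Red points lie above blue ones in the upper row at every week, apart from HSC 13 weeks replicate 2 for Cavin2 and Gp1bb, and below them in the lower row.

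Beyond platelet genes, the increases in HSC with the smallest p-values were found for genes of varied function. Pdzk1ip1, a small membrane protein also called MAP17, had 342, 507 and 722 CPM in HSC, against 37.5, 76.1 and 167 CPM in HPC-1, a log2 change of 2.65 (SE 0.19, adjusted p = 2.01e-10). Gng11, a gamma subunit of heterotrimeric G proteins, had 235, 455 and 878 CPM in HSC, against 15.7, 73.5 and 126 CPM in HPC-1, a log2 change of 2.82 (SE 0.22, adjusted p = 4.15e-10). Uba7, the activating enzyme for the ubiquitin-like protein ISG15, had 143, 293 and 475 CPM in HSC, against 14.8, 40.3 and 60.4 CPM in HPC-1, a log2 change of 3.00 (SE 0.24, adjusted p = 8.65e-10). In each of these 3 genes, as in Pf4, Cd9, Hmgn3, Hacd4 and Rab11a, all 15 HSC libraries lay above all 15 HPC-1 libraries.

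Hmgn3, a nucleosome-binding protein, had 294, 499 and 724 CPM in HSC, against 64.8, 126 and 227 CPM in HPC-1 (log2 change of 2.05, SE 0.21, adjusted p = 8.59e-08). Hacd4, a dehydratase of very-long-chain fatty acid synthesis whose locus overlaps Focad, had 134, 218 and 386 CPM in HSC, against 3.31, 31.7 and 72.6 CPM in HPC-1 (log2 change of 3.08, SE 0.32, adjusted p = 1.17e-07). Rab11a, a GTPase of recycling endosomes, had 461, 582 and 690 CPM in HSC, against 172, 296 and 344 CPM in HPC-1 (log2 change of 1.15, SE 0.13, adjusted p = 3.16e-07). These were genes with clear levels in both populations. Chchd7, a small mitochondrial protein, had 110, 235 and 402 CPM in HSC, against 21.6, 63.9 and 120 CPM in HPC-1 (log2 change of 1.91, SE 0.21, adjusted p = 4.23e-07). Gm10419, a predicted gene that overlaps Gm42517, had 0, 46.7 and 113 CPM in HSC and 1 read in all HPC-1 libraries together, a pooled ratio of 4005 with a 95% counting interval of 718.5 to 158200 (adjusted p = 3.08e-10).

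Genes used to define stem cells were mostly higher in HSC. Of 30 members of the HSC identity list, 16 were called higher and none lower (53.3%), 28 had a positive log2 change, and the median log2 change was 2.11. The 16 include Slamf1 and Ly6a, genes of the sort gate that are no finding. Meis1, a homeobox factor that HSC need, had 125, 242 and 398 CPM in HSC, against 41.9, 94.1 and 174 CPM in HPC-1, a log2 change of 1.42 (SE 0.20, adjusted p = 1.81e-05). Mllt3, a chromatin reader that maintains stem cell genes, had 78.1, 251 and 504 CPM in HSC, against 0, 13.4 and 43.5 CPM in HPC-1, so the ranges did not overlap (log2 change of 4.09, SE 0.64, adjusted p = 8.7e-05). The surface protein gene Ifitm1 had 548, 1426 and 2686 CPM in HSC, against 204, 456 and 1083 CPM in HPC-1 (log2 change of 1.57, SE 0.23, adjusted p = 2.67e-05), with the reservation that reads of Ifitm paralogs may be shared.

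Mmrn1, a multimeric protein of platelets and endothelium listed among stem cell genes, had 95.5, 216 and 605 CPM in HSC, against 0, 11.2 and 63.8 CPM in HPC-1 (log2 change of 4.87, SE 0.70, adjusted p = 2.67e-05). Gata2, a GATA factor of stem and progenitor cells, had 21.6, 63.3 and 249 CPM in HSC, against 8.24, 21.9 and 67.2 CPM in HPC-1 (log2 change of 1.81, SE 0.35, adjusted p = 0.00108). Tcf15, a helix-loop-helix factor of quiescent stem cells, had 15.0, 34.8 and 63.2 CPM in HSC, against 0, 1.73 and 14.7 CPM in HPC-1 (log2 change of 4.04, SE 0.87, adjusted p = 0.00384). Further called members were Pdzk1ip1, Slamf1, Ly6a, Fhl1, Ndn, Tek, Cdkn1c and Trpc6. Several genes in wide use as HSC reporters did not pass the test. Hlf, a leucine zipper factor, had 17.7, 82.3 and 282 CPM in HSC, against 21.1, 63.0 and 175 CPM in HPC-1, a log2 change of 0.25 (SE 0.32, adjusted p = 0.767). Procr, the protein C receptor, had medians of 83.7 CPM in HSC, against 17.7 CPM in HPC-1 (adjusted p = 0.152). Fgd5 had medians of 4.22 CPM in HSC, against 0 CPM in HPC-1 (adjusted p = 0.139), Hoxb5 had 10.7 CPM in HSC, against 0 CPM in HPC-1 (adjusted p = 0.0785), and Mecom had 58.4 CPM in HSC, against 20.6 CPM in HPC-1 (adjusted p = 0.0519). For these 4 genes the medians were higher in HSC while single libraries of both populations held few or no reads.

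Genes that earlier studies linked to aged stem cells formed the list with the largest positive median, 3.71, with 14 of 25 tested members called higher in HSC and none lower (56%). A member could enter the test on HSC counts alone, as Ehd3 below did, so this median and share may lean on such members. Cavin2, Vwf, Slamf1 and Fhl1 are shared with the lists above, so the lists are not separate evidence, and Slamf1 is a gene of the sort gate. Nupr1, a stress-response chromatin protein, had 115, 216 and 857 CPM in HSC, against 0, 0 and 26.0 CPM in HPC-1, a log2 change of 7.11 (SE 0.86, adjusted p = 1.63e-06). Aldh1a1, a retinaldehyde dehydrogenase, had 41.6, 93.4 and 335 CPM in HSC, against 0, 7.45 and 31.6 CPM in HPC-1 (log2 change of 3.79, SE 0.69, adjusted p = 0.000643). Both genes were above every HPC-1 library in all 15 HSC libraries. Ehd3, an endocytic recycling protein, had 0, 14.2 and 97.7 CPM in HSC and no count in any HPC-1 library, so it was at least 436.2-fold higher in HSC when a floor of 3 counts over the HPC-1 group is used (adjusted p = 0.000289). Cd38, an NAD hydrolase, had 0, 10.4 and 67.0 CPM in HSC and 3 reads in all HPC-1 libraries together, a pooled ratio of 456.8 with a 95% counting interval of 156 to 2217 (adjusted p = 0.000313). Ghr, the growth hormone receptor, had 0, 4.15 and 33.6 CPM in HSC, against 0, 0 and 0.368 CPM in HPC-1 (log2 change of 6.44, SE 1.16, adjusted p = 0.000536). Mt1, a metallothionein in the same list, was called with an adjusted p of 0.0424 that moved between 0.00332 and 0.163 over the alternatives.

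**Figure D3:**
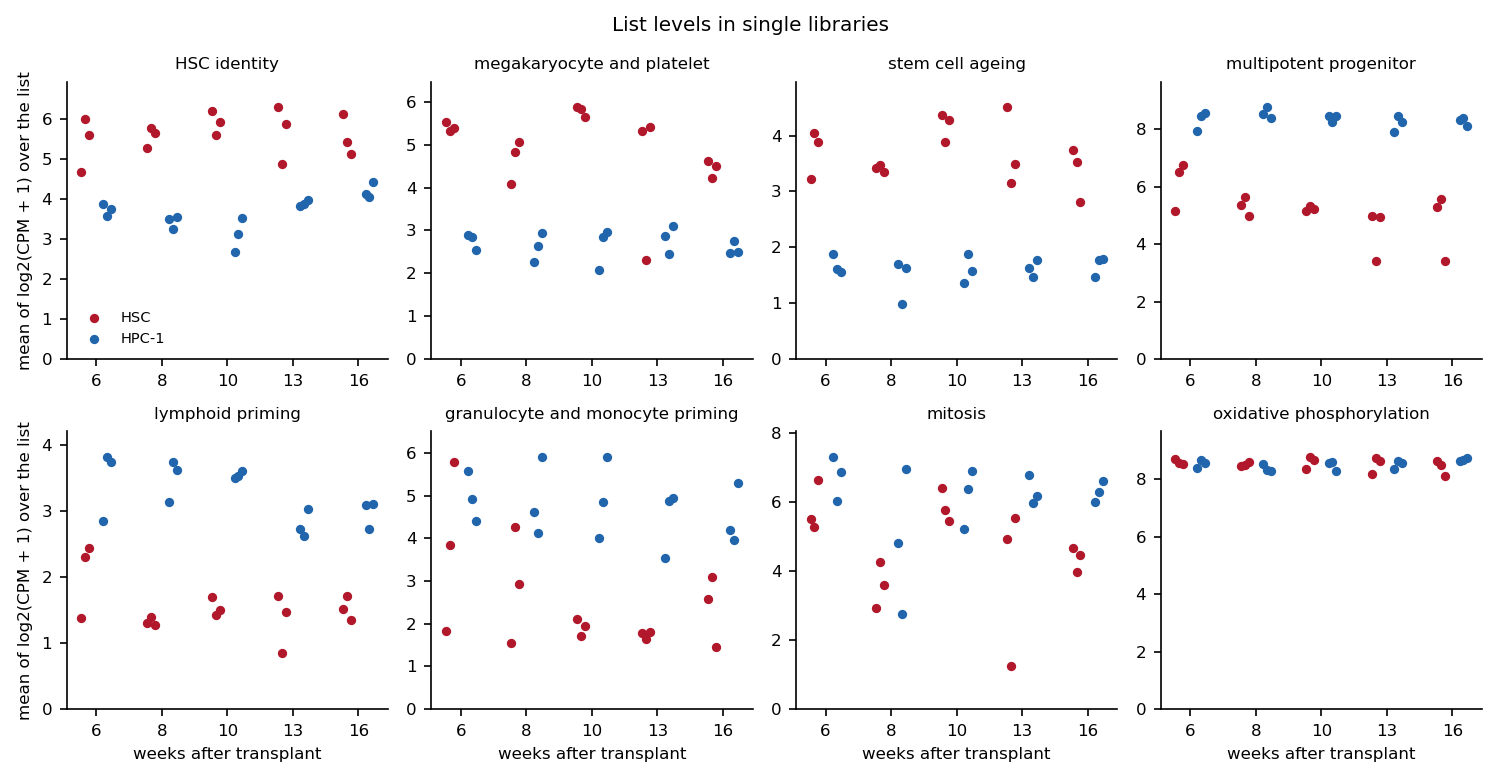
Mean of log2(CPM + 1) over the members of 8 gene lists (vertical axis) in single libraries against weeks after transplant, with HSC in red left of HPC-1 in blue. HSC points lie above HPC-1 points for HSC identity and stem cell ageing and below them for multipotent progenitor and lymphoid priming at every week, while mitosis and oxidative phosphorylation overlap and HSC 13 weeks replicate 2 is the lowest HSC library for the megakaryocyte and mitosis lists.

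On the HPC-1 side, the multipotent progenitor list moved most completely: 13 of 15 tested members were called lower in HSC, none higher (86.7% called), and the median log2 change was -2.77. The 13 include Cd48, a gene of the sort gate that is no finding. The list level was 3.40, 5.24 and 6.75 in HSC and 7.89, 8.39 and 8.78 in HPC-1, without overlap. Flt3, the receptor that marks multipotent progenitors with lymphoid potential (chr5:147330741-147400489, minus strand), had 0, 0 and 27.9 CPM in HSC, against 90.2, 154 and 306 CPM in HPC-1, a log2 change of -6.09 (SE 0.99, adjusted p = 0.00016). Cd34, a sialomucin that adult mouse HSC lose, had 0.708, 108 and 295 CPM in HSC, against 482, 1058 and 1620 CPM in HPC-1, a log2 change of -3.07 (SE 0.44, adjusted p = 2.6e-05). For both genes each HSC library lay below each HPC-1 library.

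Emb, the cell surface glycoprotein embigin, had 4.75, 79.6 and 234 CPM in HSC, against 437, 578 and 957 CPM in HPC-1 (log2 change of -2.91, SE 0.35, adjusted p = 1.24e-06). Tespa1, a protein of lymphocyte receptor signalling, had 0, 0 and 25.0 CPM in HSC, against 41.8, 261 and 350 CPM in HPC-1 (log2 change of -9.88, SE 1.00, adjusted p = 7.93e-08). Cd27, a costimulatory receptor, had 9.82, 68.9 and 155 CPM in HSC, against 136, 213 and 327 CPM in HPC-1 (log2 change of -1.64, SE 0.29, adjusted p = 0.000388). The populations stayed nearly or fully apart in these genes. Ccl9, a chemokine gene, had 0, 0 and 73.6 CPM in HSC, against 123, 224 and 423 CPM in HPC-1 (log2 change of -5.92, SE 1.02, adjusted p = 0.000314). Plac8, a small cysteine-rich protein of progenitors and immune cells, had 174, 762 and 1596 CPM in HSC, against 1164, 1970 and 4791 CPM in HPC-1 (log2 change of -1.83, SE 0.25, adjusted p = 1.27e-05). Further called members were Cd48, Ramp1, Cd52, Lgals1 and Nkg7.

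Part of the early lymphoid genes were lower in HSC. Of 20 tested members of the lymphoid priming list, 8 were called lower in HSC and 1 higher (45% called), with a median log2 change of -3.68. With a filter grouped by population, chosen after seeing the data, 12 members were tested, 4 were called lower and the median was -1.12. Dntt, the terminal transferase of antigen receptor rearrangement (chr19:41029275-41059525, plus strand), had 0, 0 and 7.34 CPM in HSC, with reads in 2 of 15 libraries, and 151, 438 and 1136 CPM in HPC-1, a log2 change of -10.74 (SE 0.80, adjusted p = 2.22e-10). Rag2, a subunit of the recombinase, had 0, 0 and 0.580 CPM in HSC, against 0, 15.0 and 192 CPM in HPC-1 (log2 change of -9.16, SE 1.23, adjusted p = 9.26e-06). The Rag2 locus overlaps B230118H07Rik on the other strand, and the counting strand is not given. Satb1, a chromatin organiser of lymphoid progenitors, had 0, 0.159 and 20.5 CPM in HSC, against 5.46, 111 and 186 CPM in HPC-1 (log2 change of -6.01, SE 0.96, adjusted p = 0.000123). Dntt separated the populations fully, 14 of 15 HSC libraries lay below all HPC-1 libraries for Satb1, and Rag2 had reads in 1 HSC library and 11 HPC-1 libraries.

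Ighm, the immunoglobulin mu constant region, had 0, 0 and 116 CPM in HSC, against 231, 506 and 934 CPM in HPC-1 (log2 change of -7.55, SE 1.31, adjusted p = 0.000348). Il7r, the interleukin 7 receptor alpha chain, had 1 read in all HSC libraries together and 0, 3.94 and 24.1 CPM in HPC-1, a pooled ratio of 601 with a 95% counting interval of 107.4 to 23780 (adjusted p = 0.00299). Tcf7 and Blnk, a T-lineage factor and a B-lineage adaptor, had no count in any HSC library. In HPC-1 the median was 5.70 CPM for Tcf7 (adjusted p = 0.00431) and 2.43 CPM for Blnk (adjusted p = 0.00855). The 1 member called higher in HSC was Mef2c, a MADS-box factor active in stem cells as well as lymphoid progenitors, with 80.5, 236 and 360 CPM in HSC, against 68.4, 156 and 248 CPM in HPC-1 (log2 change of 0.66, SE 0.19, adjusted p = 0.0291), a call lost in 19 of 41 alternatives, among them the RLE scaling and the 2 sets without near-identical libraries or without those nearer to another population. Tcrg-C1, a T cell receptor gamma constant region outside the list, had 3 reads in all HSC libraries together and 0, 11.6 and 78.0 CPM in HPC-1, a pooled ratio of 566 with an interval of 193.3 to 2748 (adjusted p = 1.06e-06). Reads of immunoglobulin and T cell receptor genes may be shared with their near-identical relatives.

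Genes that mark B cells had a summed level of 0, 88.7 and 231 CPM in HSC, against 290, 609 and 1122 CPM in HPC-1 over 8 listed genes. Cd79b, a chain of the B cell receptor, had 0, 85.0 and 177 CPM in HSC, against 31.7, 102 and 166 CPM in HPC-1 (adjusted p = 0.933). Of 4 tested members, 2 were called lower in HSC (50%), Ighm and Ighd. Ighd, the immunoglobulin delta constant region, had 0, 0 and 7.77 CPM in HSC, against 0, 0.14 and 13.6 CPM in HPC-1 (log2 change of -5.88, SE 1.71, adjusted p = 0.0351), a call lost in 20 of 39 alternatives. Of the markers that define mature B cells, Pax5 had no counts, Ms4a1 had none in HSC, and Cd79a had a median of 0 CPM in both populations. Genes of T and NK cells summed to 0, 6.89 and 204 CPM in HSC, against 8.00, 56.8 and 160 CPM in HPC-1, with no count for Cd3e, Cd4, Cd8a or Cd8b1. edgeR called neither of the 2 tested T and NK genes, 0 had an unadjusted p under 0.05, DESeq2 called 0 and limma voom called 1.

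Granulocyte and monocyte genes were also mostly lower in HSC, with more scatter between libraries. Of 21 tested members, 8 were called lower in HSC and 1 higher (42.9% called), and the median log2 change was -3.18. Cebpa, the factor that drives granulocyte commitment, had 1 read in all HSC libraries together and 0, 1.52 and 7.42 CPM in HPC-1, a pooled ratio of 172.7 with a 95% counting interval of 30.52 to 6867 (adjusted p = 1.65e-05). Csf3r, the G-CSF receptor, had 0, 2.34 and 19.8 CPM in HSC, against 14.6, 39.9 and 65.3 CPM in HPC-1 (log2 change of -3.18, SE 0.80, adjusted p = 0.013). Mpo, myeloperoxidase, had 0, 0.583 and 1005 CPM in HSC, against 164, 743 and 5037 CPM in HPC-1 (log2 change of -6.20, SE 1.57, adjusted p = 0.014). HSC 6 weeks replicate 3, a library nearer to another population, had the highest list level of the HSC libraries, 5.80, within the HPC-1 range of 3.54 to 5.92. Irf8, a factor of monocytes and dendritic cells, had 0, 0 and 24.2 CPM in HSC, against 0, 19.6 and 36.0 CPM in HPC-1 (log2 change of -5.35, SE 1.29, adjusted p = 0.00995).

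Prtn3, proteinase 3, had 100, 219 and 686 CPM in HSC, against 243, 669 and 878 CPM in HPC-1 (log2 change of -1.04, SE 0.25, adjusted p = 0.0107). Lyz2, lysozyme, went the other way, with 916, 1063 and 2350 CPM in HSC, against 510, 816 and 1052 CPM in HPC-1 (log2 change of 0.61, SE 0.13, adjusted p = 0.00281). The other called members, Ctsg, Csf1r and Elane, encode granule proteases and the M-CSF receptor, and the call was lost in 13 of 41 alternatives for Elane and in 9 of 39 for Csf1r. Without the libraries with near-identical counts, or without week as a block, 5 members were called lower in place of 8. Genes of mature neutrophils summed to 0, 2135 and 11040 CPM in HSC, against 13.3, 510 and 3717 CPM in HPC-1, with the highest value in HSC 8 weeks replicate 2. S100a8, a calcium-binding protein of neutrophils, had 0, 730 and 2577 CPM in HSC, against 0.242, 94.1 and 700 CPM in HPC-1 (log2 change of 1.40, SE 1.06, adjusted p = 0.542). Of 10 tested neutrophil genes edgeR called 0, with 0 at an unadjusted p under 0.05 and 0 by DESeq2, while limma voom called 3, all higher in HSC. Monocyte genes summed to 0.177, 18.0 and 447 CPM in HSC, against 55.6, 114 and 350 CPM in HPC-1, and Cd14 had no counts. The part of such cells in the myeloid values was not tested.

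Mast cell and basophil genes split. Of 12 tested members, 5 were called lower in HSC and 1 higher (50% called). Cpa3, the mast cell carboxypeptidase, had 0, 25.5 and 92.1 CPM in HSC, against 90.1, 291 and 565 CPM in HPC-1 (log2 change of -3.53, SE 0.60, adjusted p = 0.000245). Cma1, a chymase, had no count in HSC and 0, 5.75 and 178 CPM in HPC-1, at least 800.9-fold lower in HSC with a floor of 3 counts over the HSC group (adjusted p = 0.000453). Tpsb2, a tryptase, likewise had no count in HSC and was at least 325.6-fold lower there (adjusted p = 0.0066). Il4, a cytokine gene that basophils and mast cells express, was higher in HSC in all 15 libraries: 13.7, 62.9 and 185 CPM in HSC, against 0, 0.698 and 8.60 CPM in HPC-1 (log2 change of 4.95, SE 0.84, adjusted p = 0.000264). The other called members were Hdc and Fcer1g, both lower in HSC.

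The erythroid list had few calls, 1 higher and 2 lower in HSC of 18 tested (16.7%). Car2, carbonic anhydrase 2, had 1961, 2951 and 4740 CPM in HSC, against 1106, 2065 and 2897 CPM in HPC-1 (log2 change of 0.68, SE 0.11, adjusted p = 0.00016). Its paralog Car1 had 0, 30.8 and 432 CPM in HSC, against 77.8, 525 and 3307 CPM in HPC-1 (log2 change of -3.52, SE 0.89, adjusted p = 0.014). The pair thus differed between the populations in opposite directions. Ermap, an erythroid membrane protein, had 0, 0 and 1.14 CPM in HSC, against 0, 5.43 and 39.8 CPM in HPC-1 (log2 change of -7.05, SE 1.19, adjusted p = 0.000245). Genes of late erythroid cells summed to 20.6, 109 and 2429 CPM in HSC, against 44.9, 106 and 294 CPM in HPC-1, the highest in HSC 16 weeks replicate 3. No counts were found under the symbols Alas2 or Ahsp. Of the 10 listed genes, 9 were present in the data by symbol and 8 had counts, so a missing symbol does not show absent expression. Of 5 tested, 0 were called by edgeR, DESeq2 or limma voom, and 1 had an unadjusted p under 0.05.

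Further genes with the smallest p-values were lower in HSC without belonging to a lineage list. H2afy, the histone variant macroH2A1 (chr13:56073619-56136361, minus strand), had 17.9, 270 and 490 CPM in HSC, against 976, 1538 and 2086 CPM in HPC-1, a log2 change of -2.41 (SE 0.23, adjusted p = 2.92e-08). Cep85, a centrosomal protein, had 12.1, 33.6 and 93.0 CPM in HSC, against 175, 217 and 290 CPM in HPC-1, a log2 change of -2.60 (SE 0.24, adjusted p = 1.02e-08). Both were lower than every HPC-1 library in all 15 HSC libraries, at levels that left no HPC-1 library near 0. Cox6a2, the muscle-type subunit of cytochrome c oxidase, had reads in 1 HSC library and 0, 0 and 0.831 CPM in HSC, against 6.65, 30.9 and 102 CPM in HPC-1 (log2 change of -9.44, SE 0.77, adjusted p = 8.65e-10). Slc16a11, a monocarboxylate transporter family member, had 0, 0 and 4.02 CPM in HSC, against 10.3, 30.5 and 78.9 CPM in HPC-1 (log2 change of -8.89, SE 1.00, adjusted p = 4.56e-07). Wfdc18, a WAP-domain protein, had 0, 0 and 2.33 CPM in HSC, against 2.43, 12.1 and 78.5 CPM in HPC-1 (log2 change of -8.15, SE 1.01, adjusted p = 2.28e-06).

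Noncoding and poorly known loci were among the strongest differences as well. BC035044, which overlaps Clec2i, had 0, 0 and 87.2 CPM in HSC, against 302, 454 and 775 CPM in HPC-1 (log2 change of -10.64, SE 1.13, adjusted p = 1.56e-07). Gm26597, annotated antisense to Flt3, had no count in HSC and 6.02, 28.6 and 52.7 CPM in HPC-1, at least 837.1-fold lower in HSC with a floor of 3 counts over the HSC group (adjusted p = 2.85e-07). The counting strand is not given in the sources used here, so its reads cannot be told apart from those of Flt3. The lincRNA 2310075C17Rik, which overlaps Arpp21, had 3 reads in all HSC libraries together and 0, 21.9 and 98.8 CPM in HPC-1, a pooled ratio of 599.4 with a 95% counting interval of 204.7 to 2910 (adjusted p = 1.05e-07). Counting intervals and floors cover counting error only.

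**Figure D4:**
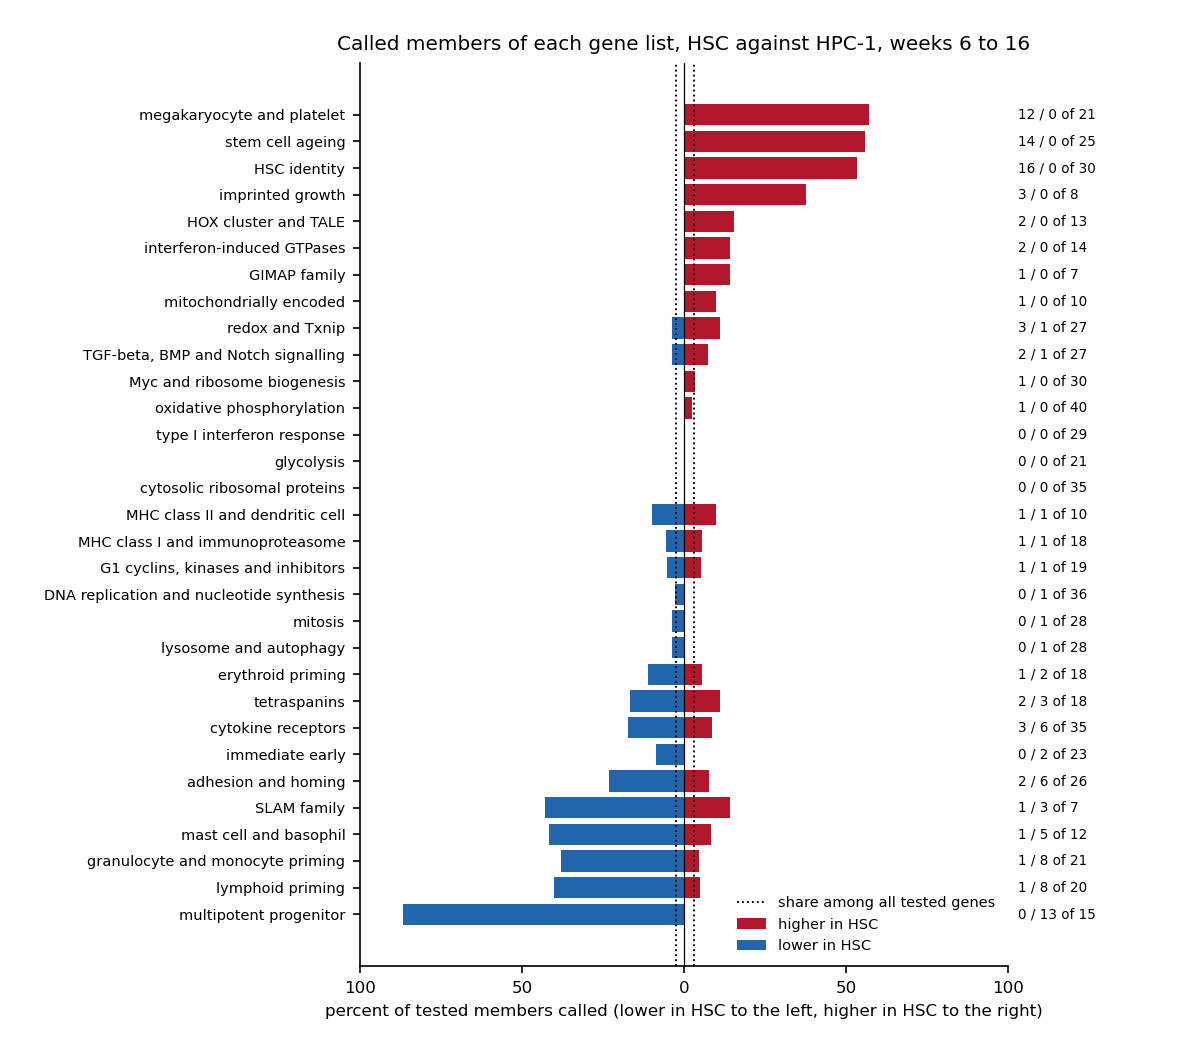
Percent of the tested members of each gene list that were called higher in HSC (red, to the right) or lower in HSC (blue, to the left), with the numbers higher and lower of those tested at the right and dotted lines at the shares among all tested genes (3.12% higher, 2.6% lower). The megakaryocyte, ageing and HSC identity lists lie furthest to the right and the multipotent progenitor list furthest to the left, while interferon response, glycolysis and ribosomal proteins have no call.

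Cell cycle genes mostly had lower values in HSC, and few passed the test. In the DNA replication list 34 of 36 members had a negative log2 change (median -0.75) but 1 was called, lower in HSC (2.78%, near the 2.6% of all genes). In the mitosis list all 28 members had a negative log2 change (median -0.80) and 1 was called, lower in HSC (3.57%). Rfc2, a subunit of the clamp loader, had 169, 396 and 656 CPM in HSC, against 249, 709 and 1011 CPM in HPC-1 (log2 change of -0.75, SE 0.17, adjusted p = 0.00547). Kif20a, a mitotic kinesin, had 0, 0 and 21.6 CPM in HSC, against 0, 43.2 and 161 CPM in HPC-1 (log2 change of -4.13, SE 1.21, adjusted p = 0.0363), and its call was lost in 9 of 41 alternatives. The Rfc2 locus overlaps Lat2 and that of Kif20a overlaps Cdc23, each on the other strand, and the counting strand is not given. Top2a, topoisomerase 2 alpha, had 0.777, 116 and 214 CPM in HSC, against 42.5, 170 and 449 CPM in HPC-1 (adjusted p = 0.126). Mcm6, a helicase subunit, had 5.84, 177 and 535 CPM in HSC, against 100, 432 and 1066 CPM in HPC-1 (adjusted p = 0.0853). The level of the mitosis list was 1.25, 4.92 and 6.63 in HSC and 2.75, 6.27 and 7.31 in HPC-1, a broad overlap. DESeq2 called 8 of 36 replication genes and 6 of 28 mitosis genes lower in HSC, against 844 of all 12785 genes. Without the libraries with few detected genes edgeR called 5 replication genes lower, against 447 of all 13211 genes. Without the libraries with near-identical counts edgeR called 0 mitosis genes.

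Among G1 regulators, Cdkn1c, the p57 inhibitor linked to stem cell quiescence, had 0, 10.5 and 54.0 CPM in HSC, against 0, 0 and 6.42 CPM in HPC-1 (log2 change of 4.05, SE 1.04, adjusted p = 0.0151). Cdk4, a kinase of G1 progression whose locus overlaps Tspan31, had 414, 738 and 1048 CPM in HSC, against 608, 1075 and 1265 CPM in HPC-1 (log2 change of -0.42, SE 0.11, adjusted p = 0.0205). Myc, a growth regulator, had 5.66, 168 and 492 CPM in HSC, against 104, 356 and 830 CPM in HPC-1 and missed the threshold (log2 change of -1.10, SE 0.34, adjusted p = 0.0527). Its relative Mycn passed it in the other direction, with 28.3, 60.6 and 182 CPM in HSC, against 0, 8.09 and 56.1 CPM in HPC-1 (log2 change of 2.42, SE 0.62, adjusted p = 0.0144). Of the 30 genes of the Myc and ribosome biogenesis list, Mycn was the 1 call.

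Metabolic and ribosomal genes had few calls. The oxidative phosphorylation list had 24 of 40 members with a positive log2 change, a median of 0.17 and 1 call, Ndufb9, a subunit of complex I, with 326, 570 and 1147 CPM in HSC, against 197, 394 and 676 CPM in HPC-1 (log2 change of 0.65, SE 0.18, adjusted p = 0.0269). All 10 tested mitochondrially encoded genes had a positive log2 change (median 0.50), and 1 was called: mt-Cytb had 3238, 5769 and 8392 CPM in HSC, against 1628, 3539 and 7304 CPM in HPC-1 (log2 change of 0.61, SE 0.18, adjusted p = 0.0336). That call was lost in 13 of 41 alternatives. Without the libraries nearer to another population, 4 mitochondrially encoded genes and 7 oxidative phosphorylation genes were called higher, against 468 of all 12904 genes. That set was chosen after seeing the data, by likeness in these same counts, so its added calls are no separate evidence. The glycolysis list had 0 calls of 21 by edgeR, 2 by DESeq2, 3 by limma voom and 4 genes at an unadjusted p under 0.05, and a median log2 change of -0.23. Pkm, pyruvate kinase, had 7.96, 71.3 and 117 CPM in HSC, against 39.7, 152 and 314 CPM in HPC-1 (adjusted p = 0.0526). Of 35 ribosomal protein genes edgeR called 0, DESeq2 called 1, limma voom called 3 and 10 had an unadjusted p under 0.05. Over all 12785 genes DESeq2 called 1444, limma voom called 1642 and 2304 had an unadjusted p under 0.05. Without the libraries nearer to another population edgeR called 7 of the 35 higher in HSC. Of the same genes 32 had a positive log2 change here and 28 did with the RLE scaling.

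Members of the type I interferon response list did not separate the populations in the edgeR test. Uba7 and Ifitm1, both called higher in HSC above, are not members of that list. Of 29 tested genes edgeR called 0, 3 had an unadjusted p under 0.05, DESeq2 called 2 and limma voom called 6, and the median log2 change was -0.25. Over all 12785 genes 2304 had an unadjusted p under 0.05, DESeq2 called 1444 and limma voom 1642. Among the interferon-induced GTPases, Gbp8 had 3.19, 30.9 and 209 CPM in HSC, against 0, 0 and 6.81 CPM in HPC-1 (log2 change of 7.26, SE 1.16, adjusted p = 0.000115), and Gbp9 was the 1 other call, also higher in HSC. Guanylate-binding proteins have close paralogs that may share reads. In antigen presentation, B2m, the light chain of MHC class I, had 2912, 5250 and 6381 CPM in HSC, against 2104, 3521 and 6260 CPM in HPC-1 (log2 change of 0.50, SE 0.15, adjusted p = 0.0458), a call lost in 24 of 41 alternatives. Psmb8, an immunoproteasome subunit, had 477, 715 and 1019 CPM in HSC, against 699, 927 and 1212 CPM in HPC-1 (log2 change of -0.39, SE 0.10, adjusted p = 0.012). H2-Aa, an MHC class II chain, was called higher in HSC and H2-Ob, a chain of the class II exchange regulator, lower.

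Surface molecules differed in both directions. Of 26 tested adhesion and homing genes, 2 were called higher in HSC and 6 lower (30.8%). Jam3, a junctional adhesion molecule, had 0, 11.5 and 63.6 CPM in HSC, against 0, 0 and 0.736 CPM in HPC-1 (log2 change of 8.24, SE 1.30, adjusted p = 9.88e-05). Cd44, the hyaluronan receptor, had 22.3, 72.8 and 122 CPM in HSC, against 74.0, 146 and 369 CPM in HPC-1 (log2 change of -1.15, SE 0.22, adjusted p = 0.00101). Further called members were Jam2, higher in HSC with a call lost in 27 of 41 alternatives, and Cd34, Itgal, Itgam and Itgb7, lower in HSC, the last 3 being leukocyte integrin chains. Among 18 tetraspanins, Cd63, a protein of late endosomes and granules, had 579, 866 and 1160 CPM in HSC, against 239, 412 and 791 CPM in HPC-1 (log2 change of 0.97, SE 0.11, adjusted p = 4.76e-07). Cd53, a leukocyte tetraspanin, had 0.216, 82.0 and 192 CPM in HSC, against 254, 621 and 1342 CPM in HPC-1 (log2 change of -3.27, SE 0.57, adjusted p = 0.000343). Cd9 was also called higher in HSC, and Cd37 and Tspan13 lower (27.8% of the 18 tetraspanins called). The call of Cd37 was lost without the libraries with near-identical counts and with the replicate number as a block.

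Of 35 cytokine receptor genes, 25.7% were called. Called higher in HSC were 3, Ghr and Tek among them, and called lower were 6, namely Flt3, Il10ra, Il7r, Il1r1, Csf3r and Csf1r. Of 27 genes of TGF-beta, BMP and Notch signalling, Hes1, a Notch target, had 4.47, 9.98 and 149 CPM in HSC, against 0, 1.24 and 29.3 CPM in HPC-1 (log2 change of 3.68, SE 0.71, adjusted p = 0.00121). Tgfbr3, a co-receptor for TGF-beta, was the other gene of the list called higher, with 7.16, 63.6 and 131 CPM in HSC, against 0, 4.31 and 41.4 CPM in HPC-1 (log2 change of 3.27, SE 0.80, adjusted p = 0.0111). Dtx4 was called lower, so 11.1% of the list were called, against 5.73% of all genes. The median of that list was 0.04, and it turned to -0.05 with the RLE scaling. Of 8 tested imprinted growth genes 3 were called higher in HSC (37.5%). Grb10, an adaptor of insulin receptor signalling, had 0, 43.4 and 121 CPM in HSC, against 0, 1.47 and 21.1 CPM in HPC-1 (log2 change of 3.52, SE 0.86, adjusted p = 0.0105). Without the libraries with near-identical counts, 1 of the 3 imprinted genes was called.

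Among redox genes, Prdx4, a peroxiredoxin of the endoplasmic reticulum, had 268, 505 and 722 CPM in HSC, against 82.8, 261 and 398 CPM in HPC-1 (log2 change of 1.08, SE 0.20, adjusted p = 0.0008). Gpx4 and Mt1 were also called higher and Prdx2 lower, each with a call that at least 12 of 41 alternatives lost. Of the 27 redox genes tested, 14.8% were called. Immediate early genes, which respond to handling and signalling, had 2 calls of 23 (8.7%, against 5.73% of all genes), both lower in HSC. The first was Dusp5, an ERK phosphatase (log2 change of -5.28, SE 0.96, adjusted p = 0.000615, against -1.61 and an adjusted p of 0.512 with no week block). The other was Junb, an AP-1 subunit that overlaps Prdx2 (log2 change of -0.89, SE 0.25, adjusted p = 0.0281). The level of the immediate early list was 2.64, 4.46 and 6.56 in HSC and 3.26, 4.45 and 6.63 in HPC-1. Endothelial and stromal genes summed to 2.37, 82.5 and 195 CPM in HSC, against 17.5, 52.4 and 117 CPM in HPC-1, with no counts for Cdh5, and edgeR called 0 of 3 tested, DESeq2 1 and limma voom 2, with 2 at an unadjusted p under 0.05.

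Week by week, with 3 libraries against 3, fewer genes passed. Of 14002 tested genes, 8 were called at week 6 (0.0571%), 6 higher in HSC (0.0429%) and 2 lower (0.0143%). At week 8 the number was 20 (0.143%), 8 higher (0.0571%) and 12 lower (0.0857%). At week 10 it was 13 (0.0928%), 7 higher (0.05%) and 6 lower (0.0429%). These calls and those of the later weeks covered 42 genes in all, from a fit in which the weeks share 1 estimate of the spread. With each week fitted alone, 46 genes were called, 16 of them among the 42. Week 13 had 22 calls (0.157%), 13 higher (0.0928%) and 9 lower (0.0643%), and week 16 had 20 (0.143%), 7 higher (0.05%) and 13 lower (0.0928%). In every one of the 5 weeks 6 genes were called: Cavin2, Gng11, Pdzk1ip1 and Pf4 as higher in HSC and Dntt and Gm26597 as lower. Pf4 averaged 2062, 1092, 1817, 716.9 and 859.2 CPM in HSC at weeks 6, 8, 10, 13 and 16, against 12.9, 25.3, 9.22, 32.3 and 30.6 CPM in HPC-1. Its log2 change was 7.46 at week 6, 5.41 at week 8, 7.64 at week 10, 4.44 at week 13 and 4.92 at week 16. Gng11 averaged 351.8, 481.5, 371.7, 501.2 and 594.7 CPM in HSC over the same weeks and 25.6, 73.4, 63.6, 110.7 and 93.2 CPM in HPC-1. HSC held more of both genes than HPC-1 in each week.

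Pdzk1ip1 averaged 469.6, 464.7, 562.8, 534.5 and 578.5 CPM in HSC at weeks 6, 8, 10, 13 and 16, against 46.5, 113.8, 77.4, 100.2 and 109.7 CPM in HPC-1. Cavin2 averaged 125, 86.5, 173.7, 54.0 and 94.2 CPM in HSC, and was at 0 in HPC-1 until week 16, where it averaged 0.0843 CPM. Dntt averaged 2.45, 0, 0, 0.238 and 0 CPM in HSC, against 666.3, 632.3, 859.9, 231.2 and 246 CPM in HPC-1. In HPC-1 the Dntt level was thus lowest in the last 2 sampled weeks, a difference within HPC-1 for which no test was run. BC035044 and Tespa1 were called in every week except week 6. Without HSC 16 weeks replicate 1 the number of genes called in at least 1 week was 317, without HSC 13 weeks replicate 2 it was 87, and with 1 of the 3 HPC-1 libraries of week 16 left out it was 24 to 27.

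Whether the difference between the populations grew or shrank over weeks 6 to 16 was tested with a slope on log2 of the week. edgeR called 0 of 12785 genes (0%; 481 at an unadjusted p under 0.05), and DESeq2 called 35. The smallest adjusted p was 0.375, for BC035044 (log2 slope -10.25, SE 2.06). BC035044 averaged 40.6, 0, 0.0603, 0 and 0.0719 CPM in HSC at weeks 6, 8, 10, 13 and 16, against 415.9, 590.1, 439.5, 423.4 and 436 CPM in HPC-1, and the week 6 reads lay in HSC replicates 2 and 3. Tespa1 had a similar course, with 19.3, 0, 0, 0.119 and 0.0719 CPM in HSC, against 171.8, 234.1, 193, 258.5 and 272.9 CPM in HPC-1 (log2 slope -6.69, SE 1.60, adjusted p = 0.83). In both genes nearly all HSC reads lay at week 6. Apobec1, an RNA-editing deaminase, averaged 15.2, 2.80, 56.5, 147 and 109 CPM in HSC, against 27.1, 31.5, 54.1, 35.1 and 9.76 CPM in HPC-1 (log2 slope 3.87, SE 1.12, adjusted p = 0.905), and its highest HSC value, 371 CPM, was that of HSC 13 weeks replicate 2.

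The late difference was then set against that of other phases in a fit of all 32 HSC and 32 HPC-1 libraries. In that fit 529 of 14436 genes were called at steady state (3.66%), with 8 libraries of each population, 201 higher in HSC (1.39%) and 328 lower (2.27%). At weeks 3 to 5, with 9 libraries of each, 447 were called (3.1%), 145 higher (1%) and 302 lower (2.09%). At weeks 6 to 16, with 15 of each, 940 were called (6.51%), 459 higher (3.18%) and 481 lower (3.33%). Calls lower in HSC made up the larger share in all 3 phases of this fit. The late and steady-state calls shared 296 genes, 31.5% of the late calls and 56% of the steady-state calls, and 295 of these had the same sign. The late and early calls shared 298 genes, 31.7% of the late and 66.7% of the early calls, all with the same sign. A count of calls grows with the number of libraries, and the difference itself was therefore tested. Against weeks 3 to 5, edgeR called 0 genes (0%; 669 at an unadjusted p under 0.05) and DESeq2 called 96. Against steady state, edgeR called 1 gene, Plac8 (0.00693%; 1287 at an unadjusted p under 0.05), and DESeq2 called 106. HSC steady state replicates 1, 3 and 8 had 8091, 7779 and 8590 detected genes. Replicate 1 was nearest to HPC-2 and had nearly the counts of an HPC-2 library (chi-square per degree of freedom 4.634). Every HSC library of weeks 3 and 4 was nearer to the late HPC-2 mean than to the late HSC mean. HPC-1 steady state replicate 7 and HPC-1 5 weeks replicate 1 each had nearly the counts of an HPC-2 library.

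Plac8 (ENSMUSG00000029322, chr5:100553725-100572245, minus strand) was lower in HSC than in HPC-1 in all 3 phases, and the gap was smaller after transplant. In HSC it had 47.4, 166 and 413 CPM at steady state, 362, 660 and 1115 CPM at weeks 3 to 5, and 174, 762 and 1596 CPM at weeks 6 to 16. In HPC-1 it had 1610, 2568 and 5988 CPM at steady state, 1190, 2622 and 5097 CPM at weeks 3 to 5, and 1164, 1970 and 4791 CPM at weeks 6 to 16. The HSC level thus differed between transplanted and untreated mice more than the HPC-1 level did. The log2 change of HSC over HPC-1 was -4.26 at steady state, -2.01 at weeks 3 to 5 and -1.83 at weeks 6 to 16. Weeks 6 to 16 minus steady state gave 2.43 (SE 0.42, adjusted p = 0.00464). Over weeks 6, 8, 10, 13 and 16, Plac8 averaged 1198, 906, 404, 391 and 510 CPM in HSC, against 2224, 3222, 2203, 1581 and 2141 CPM in HPC-1. The call of that difference was lost with the RLE scaling (log2 difference 1.97, adjusted p = 0.104) and with the replicate number as a block (2.45, adjusted p = 0.0553), and adjusted p ranged from 0.000294 to 0.104 over all alternatives. Without the libraries with near-identical counts the difference was 2.70 (adjusted p = 0.00326). Without those with few detected genes, HSC steady state replicates 1, 3 and 8 among them, edgeR's adjusted p was 0.0112.

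**Figure D5:**
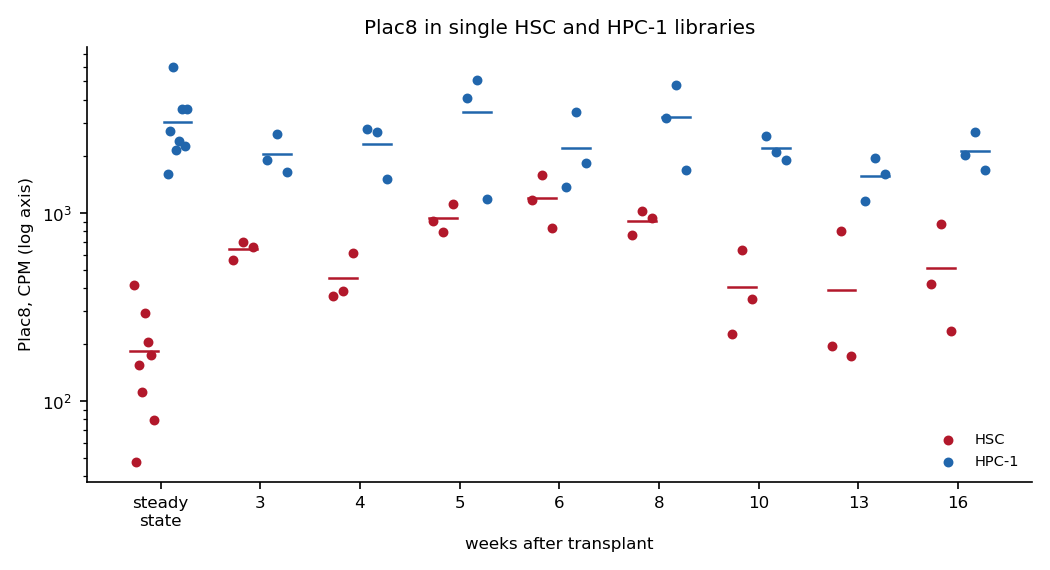
CPM of Plac8 on a log axis in single libraries at steady state and at each week after transplant, with HSC in red left of HPC-1 in blue and a line at each mean. HSC libraries lie at 47.4 to 413 CPM at steady state and at 174 to 1596 CPM at weeks 6 to 16, while HPC-1 libraries lie at 1164 CPM or above throughout.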

How the data were processed

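The files deposited by the authors hold raw counts per gene, as whole numbers, for 95 libraries. Per the submitters' processing notes, Trimmomatic 0.36, HISAT2 2.0.5, Picard and featureCounts were used with the mouse genome GRCm38 (mm10). Strand setting and annotation release are not given in the sources used here. Positions on GRCm38 came from GENCODE M21, in which 99.6% of the 53465 IDs were found, and 3433 entries lacked a symbol. Where a symbol occurred more than 1 time, the entry with the highest mean was kept.

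Libraries were grouped by title, and titles that read 10k were taken as 10 weeks. Counts were tested with edgeR 4.0.16 (filterByExpr on the design, TMM scaling, quasi-likelihood F test) in R 4.3.3, with week as a block, Benjamini-Hochberg adjustment over all genes tested and a threshold of 0.05. A gene could pass this filter on the counts of 1 population alone, so the medians and called shares of the gene lists may lean on such genes. Fitted changes of genes with no or few counts in 1 population depend on edgeR's prior count. For 0 to 3 counts a bound or a pooled ratio with a 95% interval is therefore given, except for Tcf7 and Blnk, for which no size of change is given. The scripts were tested on simulated data. The members and gene lists were chosen with earlier results of these data known. Named are the 12 genes with the smallest p in each direction (mean of at least 10 CPM, absolute log2 change of at least 1), up to 5 members per list, the gate genes and the leading genes of the slope and phase tests, with further list members, Hlf, Procr, Fgd5, Mecom, Itga2b, Gata1 and Selp among them, named after their values were seen. Alternatives were DESeq2 1.42.0, limma 3.58.1 voom with sample weights, RLE scaling, other filters, other blocks and left-out libraries. Promoters came from RefSeq on GRCm38.p6. HPC-2 libraries were not analysed here beyond the comparison of whole libraries. Results for a few genes are not reported here.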

Additional observations from a re-analysis of the deposited data

Results flagged for a closer look

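The difference between HSC and HPC-1 in Plac8 was not the same in the 2 phases compared: weeks 6 to 16 minus steady state gave 2.43 on the log2 scale (SE 0.42, adjusted p = 0.00464, edgeR's quasi-likelihood test of the difference itself). Plac8 averaged 682 ± 415 CPM in HSC, against 2274 ± 943 CPM in HPC-1 at weeks 6 to 16 (SD, n = 15 each), and 185 ± 120 CPM in HSC, against 3038 ± 1371 CPM in HPC-1 at steady state (SD, n = 8 each). At weeks 3 to 5 it averaged 678 ± 241 CPM in HSC, against 2616 ± 1277 CPM in HPC-1 (SD, n = 9 each). Of the 15 late HSC libraries, 13 lay below all late HPC-1 libraries. The call was lost with the replicate block (2.45, adjusted p = 0.0553) and with the RLE scaling (1.97, adjusted p = 0.104).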

How the results depend on the processing

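Over 159 results for named genes, 129 were called in the main comparison. Of these, 87 stayed called under every alternative in which they had a value, and 0 reversed. A gene that a filter removed from an alternative was not counted as lost there. Most named genes were picked for a small p or a call, so these numbers do not describe all called genes. The sign of 2 uncalled genes did turn. Cd79a (0.08) stood at -0.0084 with DESeq2, -0.76 without the libraries with near-identical counts, -1.93 without those nearer to another population and between -1.65 and 2.24 with single libraries left out. Selp (-0.0054) stood at 0.0766 without the libraries with few detected genes, 0.17 without those with near-identical counts, 0.0696 with limma voom, 0.0636 with no week block and between -0.21 and 0.16 with single libraries left out. The number of genes called at weeks 6 to 16, 732, was 1444 with DESeq2, 1642 with limma voom, 411 when only genes averaging 10 CPM or more entered, 453 without the libraries with near-identical counts and 406 with a filter grouped by population, which was chosen after seeing the data. It was 663 to 914 when single libraries were left out. The RLE scaling gave 744 calls, of which 683 were shared, and listed genes called numbered 113, 120 with RLE, 141 without the libraries with few detected genes and 86 without those with near-identical counts. The 42 genes called in at least 1 week became 1682 with DESeq2, 148 with no low count filter, 71 without the libraries with few detected genes, 14 without those with near-identical counts and 24 to 317 when single libraries were left out. The slope gave 35 calls with DESeq2, 1 with no low count filter, 2 without the libraries with few detected genes and 0 to 1 with single libraries left out. Against steady state the 1 call became 0 with RLE, 106 with DESeq2, 5 without the libraries with few detected genes, 4 without those nearer to another population (chosen after seeing the data), and 1 to 2 with single libraries left out. Against weeks 3 to 5 the 0 calls became 96 with DESeq2 and 1 without the libraries with few detected genes, and stayed at 0 with single libraries left out. The causes were not tested.

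The description labels number the HPC-1, HPC-2 and HSC libraries of each late week and replicate consecutively. Whether same-numbered libraries are paired is not stated. Same-numbered HSC and HPC-1 libraries of a week deviated together with a correlation of -0.161 to 0.15 (median 0.027). Of these, 2 of 15 were over 0.1, and 7 of 15 HSC libraries correlated best with their own number. Such correlations cannot show whether the libraries were paired. With the replicate block 552 genes were called at weeks 6 to 16 (480 shared with the 732), 0 for the slope, 0 against steady state and 0 against weeks 3 to 5.

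Calls were lost in 27 of 41 alternatives for Jam2, 23 of 40 for Gp5, 19 of 41 for Mef2c, 15 of 41 for Ppbp, 13 of 41 for Elane, 24 of 41 alternatives for B2m (adjusted p 0.00736 to 0.108) and Mt1, 20 of 39 for Ighd, 19 of 41 for Prdx2, 13 of 41 for mt-Cytb, 12 of 41 for Gpx4, 9 of 39 for Csf1r, 9 of 41 for Kif20a, 8 of 41 for Junb, 6 of 39 for Dtx4 (adjusted p up to 0.257) and 6 of 41 for Ndufb9 (up to 0.127). Without the libraries with near-identical counts 27 named genes lost their call. Among them were Cdkn1c (adjusted p = 0.0577), Prtn3 (0.0625), H2-Aa (0.0756), Cd37 (0.0582), Gp9 (0.0588), Tek (0.0516) and Trpc6 (0.0958). Grb10 (0.0507), Ctsg (0.0543), Hdc (0.0544), Itgb7 (0.0529) and Nkg7 (0.0701) were others. Myc, not called, passed in 17 alternatives, Pkm in 16, Mecom in 11 and Cdt1 in 10. Genes with reads in few libraries of either population limit what 15 libraries a group can show.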
